A study of Mus musculus with 2 samples.

Results

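The nuclear genes of oxidative phosphorylation were followed through 2 single-cell libraries of mouse pancreas. A gene was a member when its symbol began with Nduf (leaving out the Ndufaf assembly factors), Uqcr, Cox4, Cox5, Cox6, Cox7, Cox8 or Atp5, or was Cyc1, Cycs, Sdha, Sdhb, Sdhc or Sdhd. This rule took 87 gene identifiers under 86 symbols, of 31053 genes in the feature table. No measured value entered the rule, though it was chosen with earlier results of these data known. Both libraries came from pancreatic cells of mice carrying R26[CA]30EYFP, a yellow fluorescent reporter placed at the Rosa26 locus behind a run of CA repeats, on a C57Bl/6J background, collected after pancreatitis. Cells sorted as EYFP positive made 1 library and cells sorted as EYFP negative made the other, so both groups share the genotype, the background and the injury, and no sample without pancreatitis entered here. The treatment field of both samples reads None. The labels give neither the age nor the number of the animals, nor how long after the injury cells were taken. No EYFP transcript is among the counted genes, so the counts offer no check of the sort.

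The respiratory chain passes electrons from NADH and succinate to oxygen and pumps protons across the inner mitochondrial membrane, and ATP synthase uses that gradient to make ATP. Complex I takes electrons from NADH and complex II takes them from succinate. Complex III hands them to the small carrier cytochrome c, complex IV gives them to oxygen, and complex V is ATP synthase. Most subunits are read from nuclear genes and imported, while a core set is read from mitochondrial DNA, so each complex other than complex II is built from both genomes. In the pancreas, acinar cells make digestive enzymes and spend much ATP on protein synthesis and secretion, and duct cells drive bicarbonate transport.

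The nuclear respiratory factor NRF1 is a transcription factor known to bind promoters of many of these genes. Promoters from 250 bases before to 50 bases after the start site were taken from RefSeq (build GRCm38.p6) and matched for 70 of the 86 symbols. The core letters GCGCATGC, read on both strands as GCGCATGC or GCATGCGC, were present in 11 of the 70 member promoters (15.7%), against 824 of 27025 promoters of the table (3.05%). Promoters of the mitochondrial ribosome held it in 8 of 69 genes (11.6%) and those of the cytosolic ribosome in 3 of 63 (4.76%). The 6 stretches printed here are 1 for each complex and 1 for cytochrome c. Each comes from the member with the most UMIs among those with a match, and capitals mark the NRF1 core, which runs to 10 letters where both readings overlap. They are written 5′ to 3′ on the strand of the gene.
Ndufa6, complex I, chr15:82354343-82354402, minus strand: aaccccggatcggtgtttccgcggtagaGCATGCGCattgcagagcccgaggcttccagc
Sdhb, complex II, chr4:140961189-140961248, plus strand: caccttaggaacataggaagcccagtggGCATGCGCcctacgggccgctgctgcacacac
Uqcr11, complex III, chr10:80406818-80406877, minus strand: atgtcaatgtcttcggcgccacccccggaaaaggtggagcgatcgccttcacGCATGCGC
Cycs, cytochrome c, chr6:50566598-50566657, minus strand: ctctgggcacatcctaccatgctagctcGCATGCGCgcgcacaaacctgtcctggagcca
Cox6a1, complex IV, chr5:115349087-115349146, minus strand: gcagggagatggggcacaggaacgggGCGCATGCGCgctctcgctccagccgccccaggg
Atp5g2, complex V, chr15:102671056-102671115, minus strand: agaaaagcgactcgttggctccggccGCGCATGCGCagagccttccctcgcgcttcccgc
Counted from the RefSeq start site, the core letters began at position -83 in Ndufa6, -54 in Sdhb, -4 in Uqcr11, -60 in Cycs, -162 in Cox6a1 and -42 in Atp5g2. In Uqcr11 the core thus spans the RefSeq start itself. The GENCODE M21 annotation differs for some of these genes. There Sdhb starts at 140961203, and on the minus strand Uqcr11 starts at 80406830 and Atp5g2 at 102672352. The printed cores of these genes lie after those M21 starts.

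Other letters searched on both strands gave smaller or larger shares. The YY1 letters AAGATGGC were found in 10 of 70 member promoters (14.3%) and in 3.19% of all promoters of the table. The estrogen-related receptor letters TCAAGGTCA were found in 2 members (2.86%) and in 0.466% of all. The ETS letters CCGGAAGT were found in 5 members (7.14%) against 4.31% of all, and in 12 mitochondrial ribosome promoters (17.4%) and 11 cytosolic ribosome promoters (17.5%). The SP letters GGGGCGGG were found in 19 members (27.1%) against 18.4% of all. These are matches of letters in a window and say nothing of binding in these cells.

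The EYFP positive library held 1717 barcodes with 4006807 UMIs (unique molecular identifiers, each marking 1 captured RNA molecule), of which 860 cells with 2745342 UMIs were kept. In the EYFP negative library, 553 of 745 barcodes were kept, with 4857210 UMIs. The libraries differed in more than the sort: the median kept cell had 1007.5 UMIs in EYFP positive and 8020.0 in EYFP negative, and 427 and 5 kept cells had fewer than 1000. Lars2 and Gm42418, whose counts can hold ribosomal RNA fragments, took 8.28% and 0.343% of the UMIs, cytosolic ribosomal protein genes 17.5% and 30.5%, and acinar secretory genes 4.39% and 0.107%. Only 4 barcode sequences occurred in both libraries, 2 of them among kept cells. With 1 library in each group no test between the groups is possible, and every interval given is a 95% exact interval for the counting of UMIs. It covers neither cells nor animals, and PCR, capture and sort effects lie outside it. Levels are sums of UMIs over cells per 1000000 UMIs of the same cells (counts per 1000000, CPM), so a lower level cannot be told apart from a rise of other RNA in the cell.

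The members took 42360 UMIs in EYFP positive and 76104 in EYFP negative cells. Of the 87 identifiers, 79 had at least 30 UMIs over both libraries, 3 had fewer and 5 had none. Complex I is represented by 38 members with 36712 UMIs, complex II by 4 with 2226, complex III by 9 with 12657, cytochrome c by Cycs alone with 989, complex IV by 18 with 29987 and complex V by 17 with 35893. Grouping followed the symbols. Ndufa4 is therefore counted in complex I although its protein is known as a subunit of complex IV, Cox7a2l is counted in complex IV although its protein is known for joining complexes III and IV into supercomplexes, and Atp5s is known as an ATP synthase coupling factor rather than a core subunit.

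Of the 5 members with no UMI, 4 are forms known from other tissues. They are Cox6a2 and Cox8b, the muscle and heart forms, and Cox7b2 and Cox8c, which are known mainly from testis. The other is a second identifier of Atp5o. In GENCODE M21 that second Atp5o (ENSMUSG00000116933, chr16:91684398-91926982, minus strand) runs into the main one (ENSMUSG00000022956, chr16:91925214-91931687), so reads in the shared stretch may have been counted for neither. A floor of 3 UMIs, set here as the limit that a count of 0 allows, corresponds to 1.09 CPM in EYFP positive cells. The 2-sided 95% interval of a count of 0 reaches 1.34 CPM there. The 3 members with few UMIs were Cox4i2, with 16 UMIs in EYFP positive and 3 in EYFP negative cells, Cox6b2 with 13 and 9, and Cox7a1 with 5 and 6. The ubiquitous forms carried the counts instead: Cox4i1 had 1674 and 2916 UMIs, Cox6a1 497 and 886, Cox6b1 844 and 1473, Cox7a2 755 and 1182, and Cox8a 1423 and 2629.

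Cell classes were built by clustering both libraries together and named from marker genes, as "-like" types. The summed members differed more between classes than between libraries. In EYFP positive cells the level was 23928 CPM in ductal or metaplastic epithelial-like cells (163 cells, interval 23573 to 24286), 17266 in macrophage or monocyte-like (53 cells), 13570 in T-like (226 cells), 13096 in blood endothelial-like (51 cells), 11882 in B-like (117 cells), 10890 in fibroblast-like (63 cells) and 4987 in acinar-like cells (84 cells, 4721 to 5264). T-like and blood endothelial-like cells had overlapping intervals, 13313 to 13832 and 12551 to 13658, as neighbours in that order. All other neighbours had intervals that did not overlap. Parts of this order turned with the total used. Without mitochondrial, ribosomal and acinar genes, Lars2 and Gm42418, T-like cells were at 22971 and macrophage or monocyte-like cells at 22884. B-like cells were then at 18885, above blood endothelial-like cells at 16810. A further 103 EYFP positive cells, cluster 6, were left unnamed, at 14327. Their leading genes, among them Krt18, Krt8, Spp1, Sox9, Clu and Cldn3, are largely those of the ductal clusters, beside the acinar genes Pnliprp1 and Klk1. Their best match by markers was acinar-like. They entered neither side of the comparisons with the other named classes.

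In EYFP negative cells, the level was 24796 in ductal or metaplastic epithelial-like cells, of which there were 2. It was 20004 in NK or innate lymphoid-like (15 cells), 18652 in macrophage or monocyte-like (13), 15704 in T-like (388), 15099 in B-like (112), 14367 in blood endothelial-like (11) and 12515 in fibroblast-like cells (5). A single acinar-like cell gave 5276, and 6 erythroid-like cells gave 4695, the lowest of the library. With all UMIs as the total, the classes common to both libraries thus stood in the same order, except B-like and blood endothelial-like cells. Those changed places, with overlapping intervals in EYFP negative (14840 to 15361 and 13275 to 15524). Without mitochondrial, ribosomal and acinar genes, Lars2 and Gm42418, EYFP negative T-like cells were at 26203, above macrophage or monocyte-like cells at 23786. Most classes other than T-like and B-like held few EYFP negative cells, and 1 cell gave 84.8% of the member UMIs of the ductal class there.

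**Figure D1:**
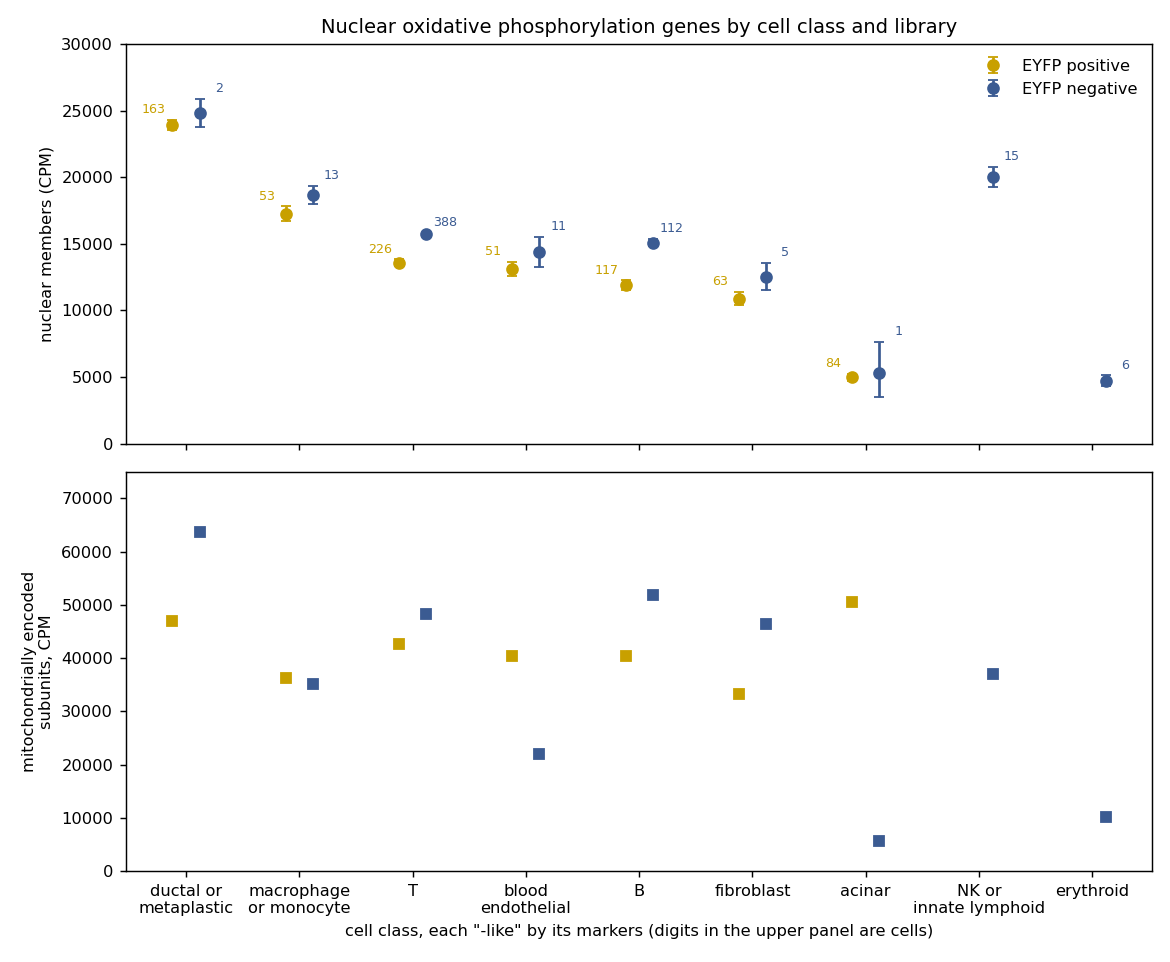
Upper panel: CPM of the nuclear members (y axis) by cell class (x axis) for EYFP positive (yellow) and EYFP negative (blue) cells, with 95% Poisson intervals for counting and the number of cells beside each point. Lower panel: the same for the 13 mitochondrially encoded subunits, without intervals. The nuclear members run from 23928 in ductal or metaplastic epithelial-like to 4987 in acinar-like EYFP positive cells, while the mitochondrially encoded subunits are at 46944 and 50482 in the same cells. The acinar-like clusters differed in their mitochondrial share.

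The clusters were formed with the members among the genes, so the order of classes was also read after clustering without member and mitochondrial genes. The EYFP positive levels were then 23071 in ductal or metaplastic epithelial-like, 17266 in macrophage or monocyte-like, 14691 in T-like, 11890 in blood endothelial-like, 11868 in B-like, 10890 in fibroblast-like and 4985 in acinar-like cells. The order was the same, but blood endothelial-like and B-like cells then had overlapping intervals, 11498 to 12291 and 11496 to 12250. The T-like class held 77 cells there, against 226, the ductal class 250, against 163, and the blood endothelial-like class 95, against 51.

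Ductal or metaplastic epithelial-like cells carried more member CPM than the other classes. Over the other named classes of the EYFP positive library, the summed members were 1.95-fold higher (1.91 to 1.99). Most UMIs of the ductal class came from 29 deep cells, as given below. Of 77 members with at least 30 UMIs, 63 were over 1.5-fold higher and 0 over 1.5-fold lower, where 40.5% of all 8837 genes were higher and 21.5% lower by the same rule. The median log2 ratio was 1.01 for members and 0.36 for all genes. All 77 had a ratio above 1. Complex I stood highest, with 34 of 37 members over 1.5-fold higher and a summed ratio of 2.21 (2.14 to 2.29), against 1.71 (1.48 to 1.97) for complex II, 1.83 (1.72 to 1.94) for complex III, 1.93 (1.86 to 2.01) for complex IV and 1.77 (1.71 to 1.84) for complex V.

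By the interval bound nearest to 1, the members that set ductal cells most apart were Ndufa4, Ndufb9 and Uqcr11. Ndufa4 had 529 UMIs in ductal or metaplastic epithelial-like cells, 729 CPM, against 242 CPM in the other named classes, a ratio of 3.01 (2.65 to 3.42). Ndufb9, an accessory subunit of complex I, was at 412 against 144 CPM (2.86, 2.42 to 3.38). Uqcr11, a small subunit of complex III whose promoter holds the NRF1 core, was at 401 against 142 (2.83, 2.39 to 3.35). Cytochrome c differed from the complexes. Cycs was at 121 CPM in ductal and 107 in the other classes, a ratio of 1.13 with an interval from 0.873 to 1.46.

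The lists of mitochondrial partners were read beside the same 40.5% of all genes over 1.5-fold higher in ductal cells. The tricarboxylic acid cycle and pyruvate dehydrogenase genes, which supply the electrons, were 2.19-fold higher (2.03 to 2.36, with 9 of 17 over 1.5-fold higher). Carriers and pores, such as the phosphate carrier Slc25a3 and the ADP/ATP carrier Slc25a5, were 2.18-fold higher (7 of 9). The mitochondrial ribosome, which translates the mitochondrially encoded subunits, was 1.73-fold higher (52 of 74), and the assembly factors 1.64-fold (16 of 33). The 13 mitochondrially encoded subunits were only 1.13-fold higher (1.12 to 1.14), with 1 of 13 over 1.5-fold. Glycolysis genes were 1.45-fold higher, with 5 of 14 over 1.5-fold higher and 4 lower. The counts for the tricarboxylic acid cycle and pyruvate dehydrogenase genes, for the assembly factors and for glycolysis lie near the share of all genes. Regulators of mitochondrial biogenesis had 2 of 9 higher and 0 lower, and the cytosolic ribosome was at 0.651 of the other classes.

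The ductal class came from a shallow and a deep cluster. Cluster 3, with 134 EYFP positive cells and a median of 758 UMIs, was at 18202 CPM of members, with 25.1% of its UMIs from Lars2 and Gm42418. Cluster 14, with 29 EYFP positive cells and a median of 14377 UMIs, was at 24980, with 2.08% from those genes. It held 15314 of the 17365 member UMIs of the EYFP positive class, and 1 cell gave 12.3% of them. The summed and single-gene ductal ratios thus rest mostly on these 29 cells. When mitochondrial, cytosolic ribosomal and acinar genes, Lars2 and Gm42418 were left out of the total, cluster 3 was at 34856 and cluster 14 at 30981. The order of the clusters thus turned with the total used. Under the same total the whole class was at 31393 and T-like cells at 22971, a ratio of 1.37 in place of 1.76 (1.72 to 1.81).

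Acinar-like cells carried the lowest member CPM of the EYFP positive classes. Their summed members were at 0.300 of the other named classes (0.284 to 0.317), and 73 of 77 members were over 1.5-fold lower and 0 higher, where 62.5% of all genes were lower and 12.2% higher. The median log2 ratio was -1.79 for members and -1.16 for all genes. Complex IV had the lowest ratio, 0.228 (0.201 to 0.259), and complex III the highest, 0.402 (0.346 to 0.465). Cox7a2l had 11 UMIs in acinar-like cells, 41.8 CPM against 351 in the others, 8.40-fold lower. Atp5f1, a subunit of the stalk that holds ATP synthase together, was at 26.6 against 214 (8.04-fold lower), and Atp5g2, a gene of the membrane ring subunit c, at 79.8 against 485 (6.07-fold lower).

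A few members did not share this. Uqcrq, a complex III subunit, had 62 UMIs in acinar-like cells, 236 CPM against 219 in the other classes, a ratio of 1.08 (0.813 to 1.40). Ndufs1, an iron-sulfur subunit of complex I, had 10 UMIs and a ratio of 1.06 (0.489 to 2.04), and Ndufa10 had 19 and a ratio of 0.927 (0.546 to 1.49). Cyc1, cytochrome c1 of complex III, had 14 UMIs and a ratio of 0.730 (0.391 to 1.26), under the 1.5-fold limit. These 4 were picked after their values were seen. Other housekeeping lists were low in the same cells: all 79 cytosolic ribosomal genes with at least 30 UMIs were over 1.5-fold lower (sum at 0.255), as were 65 of 74 mitochondrial ribosomal genes and 13 of 14 glycolysis genes, beside 62.5% of all genes. The mitochondrially encoded subunits of the class went the other way, at 1.20 (1.17 to 1.22), with 3 of 13 over 1.5-fold higher and 0 lower. The acinar-like clusters, described below, differed in this. In EYFP positive cells, cluster 10 had 6.86% mitochondrial UMIs. The share of cluster 13 lay under the 3.32% of fibroblast-like cells, the lowest of the other named EYFP positive classes. The higher level of the class thus came from cluster 10.

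Acinar secretory mRNA took 35.2% of the UMIs of the acinar-like class, and its clusters differed in this. Cluster 13, with 30 EYFP positive cells, had 68.4% secretory UMIs and 7104 CPM of members. Cluster 10, with 54 cells led by Rbpjl, Ctrc and Serpini2, had 5.78% secretory UMIs and 3107 CPM of members. Ccl5, a lymphocyte chemokine, was also among its leading genes, and cytosolic ribosomal genes took 2.99% of its UMIs. With mitochondrial, ribosomal and acinar genes, Lars2 and Gm42418 left out of the total, cluster 13 stood at 48315, above every named class of that library, while cluster 10 stood at 4339, below them all. The low level in cluster 13 therefore turned with the denominator and that of cluster 10 did not. The single EYFP negative acinar-like cell, with 81.8% secretory UMIs, moved from 5276 to 43614 under the same change.

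The ratio of nuclear member UMIs to mitochondrially encoded UMIs does not depend on the rest of the library, but it moves with the mitochondrial share of the cells. It was 0.510 in ductal or metaplastic epithelial-like, 0.475 in macrophage or monocyte-like, 0.328 in fibroblast-like, 0.325 in blood endothelial-like, 0.319 in T-like, 0.295 in B-like and 0.0988 in acinar-like EYFP positive cells. In EYFP negative cells it was 0.325 in T-like and 0.292 in B-like cells, close to the EYFP positive values of the same classes. Classes with few EYFP negative cells differed more. Blood endothelial-like cells had 0.654 from 11 cells, ductal or metaplastic epithelial-like cells 0.390 from 2 cells, and the single acinar-like cell 0.933, where the EYFP positive acinar-like class was the lowest.

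**Figure D2:**
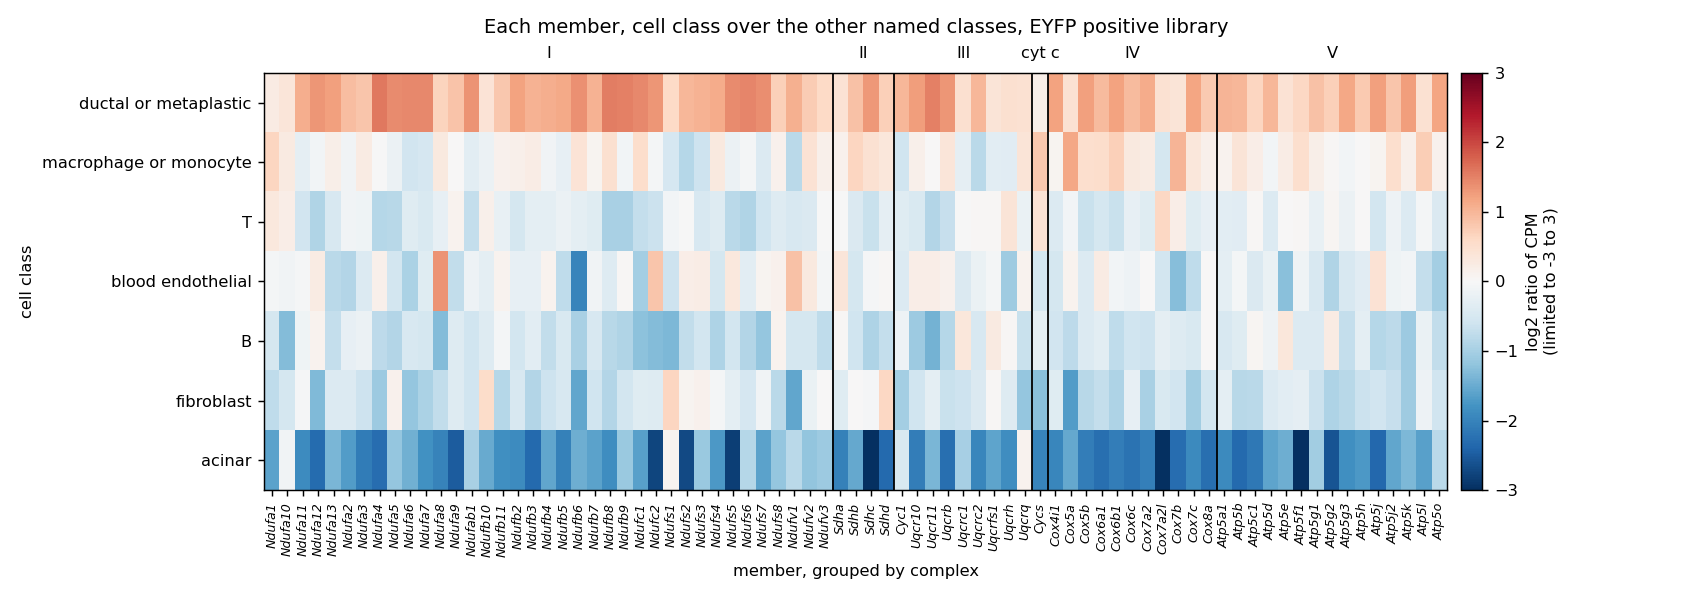
Each column is a member with at least 30 UMIs in the EYFP positive library, grouped by complex, and each row a cell class. Colour is the log2 ratio of its CPM in that class over the other named classes, limited to -3 to 3. The ductal row is above 0 for all 77 members, and the acinar row is over 1.5-fold lower for 73 of them.

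T-like cells stood above B-like cells in both libraries, by little in EYFP negative cells. In EYFP positive cells they were at 13570 against 11882 CPM. The T-like level over the B-like level was 1.04 (1.02 to 1.06) in EYFP negative cells, and it was 0.977 (0.958 to 0.996) once the 5 cells marked by Scrublet as doublets were removed, so their order in that library was not settled. In EYFP positive cells, T-like cells were at 0.835 of the other named classes (0.816 to 0.854), with 1 of 77 members over 1.5-fold higher and 16 lower, where 12.3% and 45.7% of all genes were. In EYFP negative cells, where T-like and B-like cells make up most of the library, the T-like ratio was 1.01 (0.992 to 1.02), with 2 of 78 higher and 0 lower, against 14.4% and 24.8% of all genes. The B-like ratio was 0.744 (0.720 to 0.769) in EYFP positive cells, with 0 of 77 higher and 34 lower (all genes 13.3% and 45.1%). It was 0.956 (0.938 to 0.974) in EYFP negative cells, with 1 of 78 higher and 2 lower (all genes 15.5% and 25.8%). In each of these comparisons the share of members past 1.5-fold lay below that of all genes, and for the B-like EYFP positive members that were lower it lay close to it. All genes were not matched to the members for UMIs, and genes with few UMIs pass 1.5-fold more easily by counting alone. The part of this in the lower share of members was not tested.

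Cox7a2l was the only member over 1.5-fold higher in T-like cells of both libraries. It lies at chr17:83501918-83517330 on the minus strand (GENCODE M21), and C57BL/6 mice are known to carry a short form of its protein. T-like cells had 332 Cox7a2l UMIs, 427 CPM, in EYFP positive and 1821, 532 CPM, in EYFP negative cells. B-like cells had 271 and 282 CPM, macrophage or monocyte-like cells 227 and 291, and acinar-like EYFP positive cells 41.8. Over the other named classes the T-like ratio was 1.55 (1.34 to 1.78) in EYFP positive and 1.95 (1.74 to 2.18) in EYFP negative cells. Ductal or metaplastic epithelial-like cells also held much of it, at 401 CPM in EYFP positive cells and 613 in the 2 EYFP negative cells.

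A few other members had T-like ratios above 1. Uqcrh, the hinge subunit of complex III, was at 559.7 and 615 CPM in T-like cells of the EYFP positive and negative libraries, 1.31-fold (1.17 to 1.48) and 1.41-fold (1.29 to 1.54) over the other classes. Cycs was at 135 and 147 CPM in the same cells, with ratios of 1.34 (1.05 to 1.71) in EYFP positive and 1.12 (0.946 to 1.33) in EYFP negative. Ndufa10, a complex I subunit, was at 113 CPM in EYFP negative T-like and 61.7 in B-like cells, a T-like ratio of 1.72 (1.37 to 2.18) to the other classes, while its EYFP positive T-like ratio was 1.15 (0.841 to 1.55). In EYFP negative B-like cells the ratio was 0.822 (0.738 to 0.913) for Uqcrh, 0.714 (0.567 to 0.891) for Cycs and 0.577 (0.425 to 0.769) for Ndufa10, each below 1. Lower in T-like EYFP positive cells were Ndufa4 at 0.551 (0.467 to 0.647), Ndufb9 at 0.507 and Ndufb8 at 0.512, and the ductal cells that held much of these counts are among the classes compared. In B-like EYFP positive cells, Atp5e, the small epsilon subunit of ATP synthase, had the only interval that lay above 1, at 1.26 (1.09 to 1.45). Uqcr11 was farthest below, at 0.374 (0.246 to 0.546).

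Macrophage or monocyte-like cells were above the others in complexes II, IV and V and in cytochrome c. The summed ratio was 1.13 (1.09 to 1.17), with 7 of 77 members over 1.5-fold higher and 5 lower (all genes 19.1% and 37.8%). Complex II was at 1.33 (1.05 to 1.65), Cycs at 1.76 (1.24 to 2.45), complex IV at 1.29 (1.21 to 1.37) and complex V at 1.17 (1.10 to 1.25). Complex I, at 0.998 (0.938 to 1.06), and complex III, at 0.974 (0.874 to 1.08), had intervals that hold 1. Cox5a, a subunit on the matrix side of complex IV, was at 376 CPM against 167 (2.25, 1.76 to 2.85). Cox7b was at 446 against 219 (2.03, 1.63 to 2.52), and Atp5l, subunit g of ATP synthase, at 616 against 372 (1.66, 1.38 to 1.98). Cox5a was at 356 CPM in the 13 EYFP negative cells of this class, against 198 in T-like cells of that library. Of the 53 EYFP positive cells, 26 belong to cluster 16, whose leading genes include hemoglobin genes. The 27 cells of cluster 11 gave 3358 of the 3951 member UMIs of the class, and 1 cell gave 18.8% of the class sum. Complex II had 90 UMIs in the class and Cycs 42.

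Blood endothelial-like cells were at 0.838 of the other classes (0.802 to 0.875), with 3 members over 1.5-fold higher and 15 lower (all genes 27.0% and 28.7%). Ndufa8, a complex I subunit of the intermembrane space side, was at 229 CPM against 89.3 (2.56, 1.76 to 3.62), and it was at 247 in the 11 EYFP negative cells. Ndufc2 was at 241 against 134 (1.79, 1.26 to 2.49). Atp5e was at 247 against 585 (2.37-fold lower) and at 179.6 in EYFP negative endothelial-like cells. Fibroblast-like cells were at 0.690 (0.658 to 0.724), with 2 higher and 37 lower (all genes 22.2% and 34.2%). Cox5a was at 60.5 against 193 there, 3.19-fold lower, and Cycs had a ratio of 0.421 (0.18 to 0.840).

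**Figure D3:**
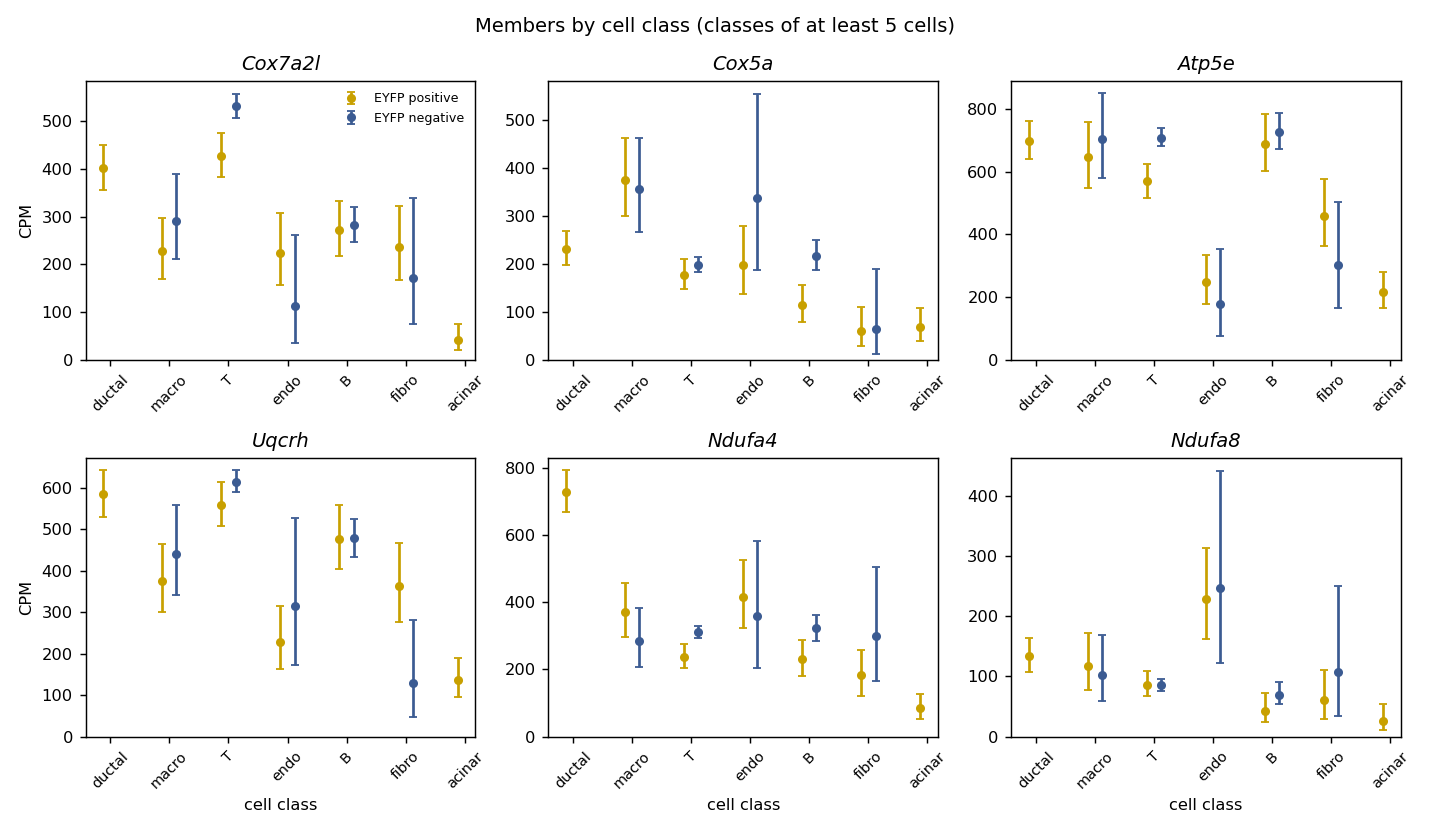
CPM (y axis) of 6 members by cell class (x axis), in EYFP positive (yellow) and EYFP negative (blue) cells, with 95% Poisson intervals for counting. Drawn are classes found in both libraries, in each library where they have at least 5 cells. NK or innate lymphoid-like and erythroid-like cells are left out. Among the drawn classes Cox7a2l is highest in T-like cells of both libraries, at 427 and 532. In EYFP positive cells Ndufa4 is highest in ductal or metaplastic epithelial-like cells, and Ndufa8 in blood endothelial-like cells.

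The mix of complexes differed less than the level. Complex I made up 35.1% of member UMIs in ductal or metaplastic epithelial-like, 30.1% in T-like and 29.4% in B-like EYFP positive cells. Complex V made up 27.3%, 30.4% and 32.3% of them, and complex IV 24.7%, 25.1% and 24.6%. Acinar-like cells had 19.1% in complex IV and 14.5% in complex III, where the other named EYFP positive classes had 23.1% to 28.0% and 9.54% to 11.5%, with macrophage or monocyte-like cells highest in complex IV and lowest in complex III. Complex II, the only complex with no mitochondrially encoded subunit, made up 1.6% to 2.83% in every named EYFP positive class, the highest in fibroblast-like cells.

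The hypoxia-linked forms Cox4i2 and Ndufa4l2, which are known from pericytes and smooth muscle, were found in very few cells. Ndufa4l2 had 29 UMIs in EYFP positive and 5 in EYFP negative cells. Of the EYFP positive UMIs, 14 were in 4 fibroblast-like cells, 14 in 2 cells classed as T-like and 1 in a macrophage or monocyte-like cell. The 5 EYFP negative UMIs were all in fibroblast-like cells, 4 of the 5 cells there. Cox4i2 had 16 UMIs in 3 EYFP positive cells, all classed as T-like.

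Those T-like cells held markers of another type. A cell of 11030 UMIs held 10 of the 16 Cox4i2 UMIs and 11 of the 29 Ndufa4l2 UMIs. It also held 113 UMIs of Myh11, 107 of Acta2, 11 of Notch3 and 6 of Rgs5, genes of smooth muscle and pericytes, and 1 UMI over all the T cell markers. Another, of 2156 UMIs, had 5 Cox4i2 and 3 Ndufa4l2 UMIs with 8 of Rgs5 and 0 of the T cell markers, and a cell of 1585 UMIs had 1 Cox4i2 and 5 Rgs5 UMIs with 0. The class name goes against these cells. In all, 3 of 226 EYFP positive and 0 of 388 EYFP negative T-like cells had a UMI of Acta2, Myh11 or Rgs5. The 2 Cox4i2 UMIs in EYFP negative T-like cells were in cells with 59 and 55 T cell marker UMIs and 0 of the mural markers.

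Over all kept cells, the summed members were nearly level between the libraries. They were at 15430 CPM in EYFP positive and 15668 in EYFP negative cells, a ratio of 0.985 (0.973 to 0.997). Of 79 members, 4 were over 1.5-fold higher in EYFP positive cells and 0 lower, where 30.6% of 11040 genes were higher and 14.7% lower. That count and its direction depended on the setting: 2 members were higher and 12 lower as a mean over cells, 1 and 11 in cells thinned to 1000 UMIs, and 1 and 7 without cytosolic ribosomal genes in the total. The median log2 ratio was 0.01 for members and 0.15 for all genes. The direction turned with the total: without Lars2 and Gm42418 the ratio was 1.07 (1.06 to 1.08), and without cytosolic ribosomal genes 0.830 (0.820 to 0.840). The libraries also differ in their classes, with 163 ductal or metaplastic epithelial-like cells in EYFP positive and 2 in EYFP negative.

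Complex I was at 1.08 (1.05 to 1.10), complex II at 1.06 (0.972 to 1.16), complex III at 1.02 (0.981 to 1.06), cytochrome c at 0.759 (0.661 to 0.871), complex IV at 0.955 (0.933 to 0.978) and complex V at 0.912 (0.892 to 0.932). The members over 1.5-fold higher were Ndufa4l2 (29 against 5 UMIs), Uqcr11 (212 against 136 CPM, 1.55, 1.39 to 1.74), Ndufb9 (216 against 139.6, 1.55, 1.38 to 1.73) and Ndufc1 (158 against 104, 1.53, 1.34 to 1.74). Uqcr11 and Ndufb9 are also among the 3 members that set ductal cells apart most by that bound. The lowest ratio was that of Cox7a2l, whose T-like ratio to the other classes was the highest in both libraries, at 318 against 455 CPM (0.697, 0.644 to 0.755).

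Within T-like cells, the summed members were at 13570 CPM in EYFP positive and 15704 in EYFP negative cells, a ratio of 0.864 (0.846 to 0.882). Of 78 members, 0 were over 1.5-fold higher and 4 lower, where 7.42% of 8050 genes were higher and 15.4% lower. The median log2 ratio was -0.21 for members and -0.09 for all genes. The lower members were Ndufa12 (54.0 against 90.2 CPM, 0.599, 0.423 to 0.829), Atp5o (122 against 187, 0.653, 0.521 to 0.811), Atp5k (148 against 226, 0.655, 0.534 to 0.798) and Atp5s, with 3 and 30 UMIs and an interval that holds 1. The ratio was 0.872 for complex I, 0.927 for complex III, 0.847 for complex IV and 0.843 for complex V. Mitochondrially encoded subunits were at 0.880 (0.870 to 0.891) and the mitochondrial ribosome at 0.899 (0.863 to 0.936) in the same cells. Lists outside the mitochondrion were lower too. Glycolysis genes were at 1560 CPM in EYFP positive and 2024 in EYFP negative T-like cells, and the cytosolic ribosome at 283524 and 349138.

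The T-like cells of the libraries came from different clusters and depths. In EYFP positive cells, 152 of 226 were in cluster 1, with a median of 808 UMIs, 22% of them from Lars2 and Gm42418, and 9996 CPM of members. A further 69 were in cluster 7, with a median of 7920 UMIs, 3.67% from those genes and 14300 CPM of members. EYFP negative T-like cells were mostly in clusters 0 and 2, at 15240 and 15607, and in cluster 8, led by S100a4, Izumo1r, Maf and Icos, at 17486. Without cluster 1 the ratio between the libraries was 0.928, with at least 3000 UMIs per cell it was 0.922, and without Lars2 and Gm42418 in the total 0.934. The count of members past 1.5-fold was then 1, 1 and 2. It moved the other way as a mean over cells, to 27 members, all lower, and in cells thinned to 1000 UMIs, to 19 lower and 2 higher.

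Within B-like cells, the ratio was 0.787 (0.759 to 0.816), from 11882 CPM in EYFP positive and 15099 in EYFP negative cells. The top cell gave 7.53% of the member UMIs of the EYFP positive and 13.1% of those of the EYFP negative B-like cells. Of 77 members, 0 were over 1.5-fold higher and 24 lower, where 7.74% of 4496 genes were higher and 19.3% lower. The median log2 ratio was -0.37 for members and -0.10 for all genes. Atp5k, subunit e of ATP synthase, was at 92.3 against 264 CPM (0.349, 0.230 to 0.512), Atp5o, which links the catalytic head to the stalk, at 95.4 against 189 (0.505, 0.332 to 0.746), and Cox5a at 114 against 217 (0.525, 0.359 to 0.751). Atp5k and Atp5o are thus among the lower members of both lymphocyte classes. Atp5g2 was at 514 against 459, with a ratio of 1.12 (0.928 to 1.34), and Uqcrh at 477 against 478.

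B-like cells again came from separate clusters, with 114 of 117 EYFP positive cells in cluster 5 and all 112 EYFP negative cells in cluster 4. Immunoglobulin genes, among them Ighg2b, and Jchain, genes of antibody secreting cells, are among the leading genes of cluster 4. Glycolysis genes were at 0.628 (0.561 to 0.701) and mitochondrially encoded subunits at 0.779 (0.764 to 0.794) in EYFP positive B-like cells, with the cytosolic ribosome at 0.944. The summed member ratio was 0.868 (0.837 to 0.900) without Lars2 and Gm42418 in the total, where 15 members were past 1.5-fold, and 0.849 in cells with at least 3000 UMIs. In these ratios cluster, depth and library cannot be told apart from the sort.

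In the classes with few EYFP negative cells the ratio of EYFP positive over EYFP negative was 0.926 (0.882 to 0.972) in macrophage or monocyte-like, 0.912 (0.834 to 0.997) in blood endothelial-like, 0.870 (0.792 to 0.957) in fibroblast-like and 0.965 (0.922 to 1.01) in ductal or metaplastic epithelial-like cells. With Lars2 and Gm42418 left out of the total these became 0.979 (0.933 to 1.03), 0.987 (0.904 to 1.08), 0.951 (0.866 to 1.05) and 1.02 (0.971 to 1.06), each with an interval that holds 1. With cytosolic ribosomal genes left out instead they were 0.890 (0.848 to 0.934), 0.913 (0.836 to 0.999), 0.915 (0.833 to 1.01) and 0.975 (0.932 to 1.02), so the macrophage or monocyte-like and blood endothelial-like intervals stayed below 1. T-like and B-like cells were below 1 without Lars2 and Gm42418, at 0.934 (0.914 to 0.953) and 0.868.

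**Figure D4:**
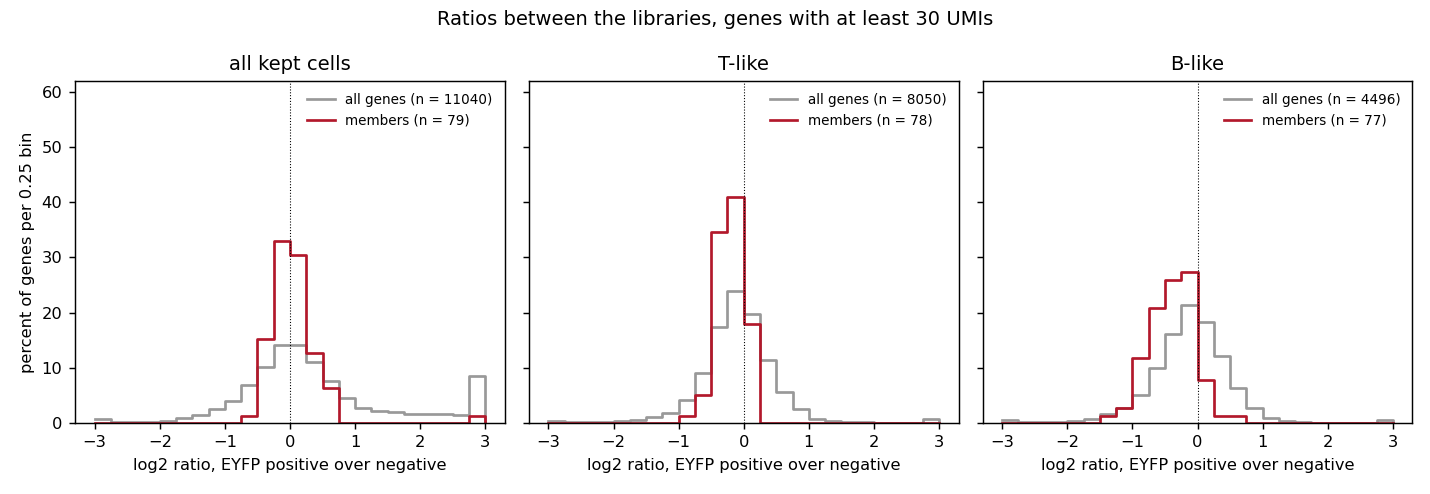
Share of genes (y axis, percent per bin of 0.25) by log2 ratio of EYFP positive over EYFP negative (x axis), for all genes (grey) and members (red) with at least 30 UMIs, in all kept cells, T-like and B-like cells. The outermost bins hold all values beyond -3 and 3. The members lie in a narrower range than all genes, with medians of 0.01, -0.21 and -0.37. All genes were not matched to the members for UMIs.

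Per cell, depth was set equal by thinning each cell to 1000 UMIs, which left out shallower cells. The median cell then held 21 member UMIs in ductal or metaplastic epithelial-like EYFP positive cells (60 of 163 cells kept), 16 in macrophage or monocyte-like (27), 13 in T-like (125 of 226), 12.5 in blood endothelial-like (28), 11 in B-like (66), 11 in fibroblast-like (23) and 4 in acinar-like cells (75). In EYFP negative cells the median was 15 in T-like (385), 13 in B-like (111) and 18 in both macrophage or monocyte-like (13) and NK or innate lymphoid-like cells (15). Unthinned, these classes had the CPM given by their sums. Thinned to 5000 UMIs, the medians were 129 in ductal (29 cells), 68 and 76 in EYFP positive and negative T-like (67 and 350) and 66 and 70.5 in B-like cells (24 and 84).

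**Figure D5:**
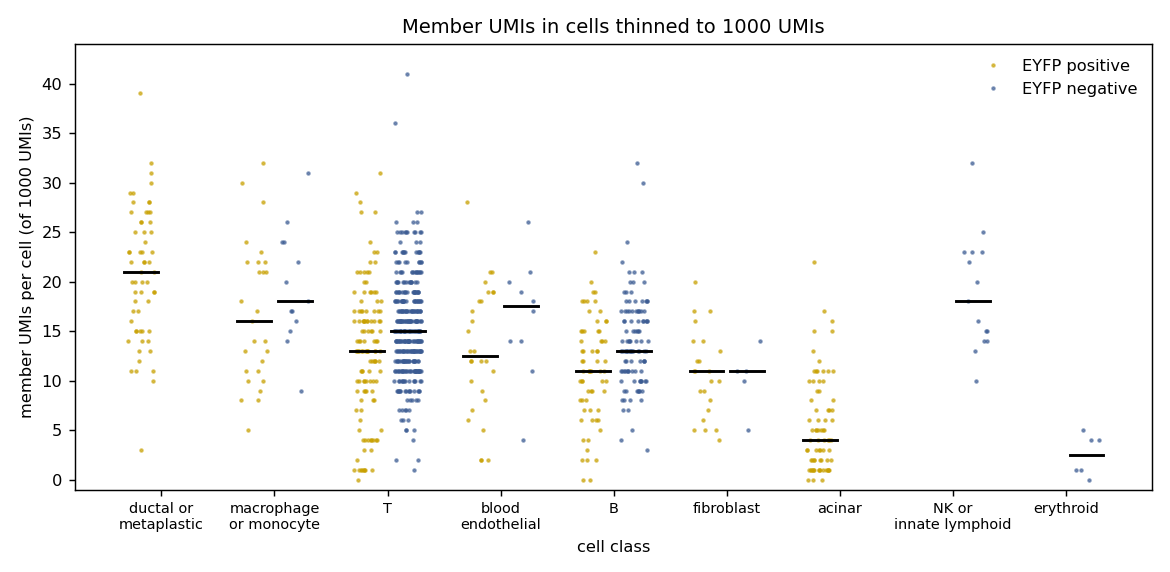
Member UMIs per cell after thinning to 1000 UMIs (y axis) by cell class (x axis) in EYFP positive (yellow) and EYFP negative (blue) cells. Points are cells and black lines are medians, which run from 21 in ductal or metaplastic epithelial-like to 4 in acinar-like EYFP positive cells. EYFP positive T-like cells show a separate low set near 0 to 4.

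The spread among EYFP positive T-like cells was wider than among EYFP negative ones. The variance over the mean of member UMIs thinned to 1000 was 3.39 against 1.58, and it was 2.37 against 1.5 in B-like cells. Thinned to 5000, which keeps only deep cells, it was 4.20 against 2.76 in T-like cells and 5.18 against 5.60 in B-like cells, so the B-like direction turned with depth. At 1000 UMIs, a threshold of 4 member UMIs, set after seeing the values, marked 20 of 125 EYFP positive and 4 of 385 EYFP negative T-like cells. All 20 were in cluster 1. Their median cell had 3.45% cytosolic ribosomal, 14.3% mitochondrial and 12.3% Lars2 and Gm42418 UMIs, against 32.8%, 3.31% and 4.21% in the other 105 cells. The 8 such B-like cells of 66 had 2.80%, 12.0% and 13.8%, against 25%, 3.30% and 5.73% in the other 58. Low member counts therefore came with low ribosomal and high mitochondrial shares of the same cells, and their part in the ratios between libraries was not tested.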

How the data were processed

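Single-cell libraries of pancreatic cells were analysed from the deposited matrices, in which the authors deposited raw UMI counts for each gene in each barcode. Per the submitters' processing notes they came from Cell Ranger 2.1.0 with build GRCh38, while the file header gives software version 3.1.0 and the identifiers are mouse Ensembl ones, and these sources conflict on the build. Gene coordinates come from GENCODE M21 by identifier. Per the labels' protocols the kit was Chromium 5′, version 1.1. The transcript end that was read was not checked here.

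A barcode was kept with 200 or more genes and a mitochondrial share of 20% or less. Both libraries were clustered together in scanpy 1.11.5 (Python 3.11.15; genes in at least 3 cells, 10000 counts per cell, log1p, 2000 variable genes, 30 principal components, 15 neighbours, Leiden resolution 1.0, leidenalg 0.10.2). A cluster was named where at least 3 markers of a class were at least 2-fold over the median of the other clusters. It stayed unnamed where another class led its 10 top genes. This naming rule was written with the data in view. Doublets were kept in the main analysis. Scrublet called 2 doublets in the EYFP positive and 5 in the EYFP negative library.

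For each class of a library, member UMIs were summed and set against all UMIs of those cells, as counts per 1000000 (CPM). Ratios have exact conditional binomial 95% intervals, levels Poisson ones. Genes with at least 30 UMIs over both sums were counted past 1.5-fold. The shares of all genes were not matched to the members for UMIs. Named genes are those with the most UMIs in each complex, all tissue isoforms, and those whose interval bound lay farthest from 1 in a comparison. The members and lists were chosen with earlier results of these data known. The code was tested on simulated data.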

Additional observations from a re-analysis of the deposited data

Results flagged for a closer look

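Member UMIs were also present in the barcodes that the filter removed, which entered no comparison. In the 857 removed EYFP positive barcodes the members were at 4540 CPM of the non-mitochondrial UMIs (4389 to 4695), against 16150 in the kept cells. In the 192 removed EYFP negative barcodes they were at 700.0 (618 to 790.1), against 16447 in the kept cells. Removed EYFP positive barcodes had 30.2% of their UMIs from Lars2 and Gm42418 and kept ones 8.28%. The removed EYFP positive barcodes were not alike: the 107 with a mitochondrial share from 20% to 50% were at 13478 (12891 to 14085), from 1981 member UMIs, and the 230 above that at 4445 (4070 to 4845). Removed EYFP negative barcodes were not alike either. The 29 with a share from 20% to 50% were at 3512 (2780 to 4377) and the 71 above that at 7176 (5644 to 8995). Both values lie above the 700.0 of all removed EYFP negative barcodes.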

How the results depend on the processing

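No paired analysis was possible because each group holds 1 library and no test was made. Depth is 1 limit: the median kept EYFP positive cell had 1007.5 UMIs, and genes under 30 UMIs, the classes with few EYFP negative cells and many single-gene ratios within B-like cells rest on small counts. Counts here are of members past 1.5-fold, and ratios are of the summed members, of the EYFP positive over the EYFP negative library where no other is named. The cause of a shift was not tested.

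The ratio over all kept cells was 0.985 and turned above 1 in 3 settings. It was 1.04 with barcodes held to 500 genes and a mitochondrial share of 10%, 1.05 in cells with at least 3000 UMIs and 1.07 without Lars2 and Gm42418 in the total. It was 0.958 with no limit on the mitochondrial share, 0.969 without mitochondrial, ribosomal and acinar genes, Lars2 and Gm42418, 0.832 as a mean over cells, 0.848 in cells thinned to 1000 UMIs and 0.830 without cytosolic ribosomal genes. The count was 4 and became 14 as a mean over cells, 12 thinned, 8 without ribosomal genes and 1 at 2-fold.

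The T-like ratio of 0.864 stayed below 1 in all settings run. In the order just used it was 0.885 (stricter barcodes), 0.922 (deep cells), 0.934 (no Lars2), 0.831 (no mitochondrial limit), 0.736 (mean over cells), 0.844 (thinned) and 0.785 (no ribosomal genes). It was 0.918 at Leiden resolution 0.5, 0.931 when clustered without member and mitochondrial genes, 0.891 without the top cell of each sum and 0.928 without cluster 1. The count of 4 became 1, 1, 2, 27 and 21 with stricter barcodes, deep cells, no Lars2, mean over cells and thinning, 0 at resolution 0.5, 1 when clustered without members, 2 without the top cells, 1 without cluster 1 and 1 at 2-fold.

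The B-like ratio of 0.787 was 0.830 with stricter barcodes, 0.849 in deep cells, 0.868 without Lars2, 0.880 without all 4 gene groups, 0.708 as a mean over cells and 0.738 without doublets. Its count of 24 became 13 without all 4 groups, 10 thinned, 15 without Lars2 and 3 at 2-fold. Ductal over T-like EYFP positive cells was 1.76 and became 1.67 (stricter barcodes), 1.72 (no mitochondrial limit, mean over cells and deep cells), 1.37 (without all 4 groups), 1.6 (thinned and resolution 0.5), 1.57 (clustered without members) and 1.45 (no ribosomal genes). T-like over B-like EYFP negative cells was 1.04 and became 1.22 (without all 4 groups), 1.10 (thinned), 1.21 (no ribosomal genes), 1.09 (top cells) and 0.977 (doublets removed).

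Of 1921 values for 142 single-gene ratios, 1719 stayed within the main interval, 190 left it and 12 turned. Over all kept cells these were Atp5g1 (0.961 thinned, 0.974 without ribosomal genes), Atp5j (0.933 thinned), Cox6b2 (0.279 as a mean over cells), Cox7a2 (0.981 as a mean over cells, 0.714 thinned, 0.953 without ribosomal genes), Ndufa4 (0.981) and Ndufa6 (0.949) without ribosomal genes, and Sdhb (0.951 as a mean over cells). In thinned cells Ndufa10 was at 1.25 in T-like and Uqcrb at 1.44 in B-like cells. Leaving out low-UMI clusters changed nothing, since none met that rule. The settings with deep cells, without Lars2 or ribosomal genes alone, and without cluster 1 or cells with Acta2, Myh11 or Rgs5 were chosen after seeing the data.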
